A study of Homo sapiens with 9 samples.

Results

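The genes described here are the cytosolic translation initiation and elongation factors, taken by symbol: names starting with EIF1 to EIF6, EEF1 or EEF2. A symbol does not show that a member acts mainly in translation. The eIF2 kinases, the eIF2B subunits, EIF2S1, the EEF1A methyltransferases, EEF2K and EEF2KMT were left out, as were symbols with a hyphen and symbols ending in P and a number. That last step removes pseudogenes and also the 3 genes of the eIF4E-binding proteins. It left 50 of the 56541 genes in the table, of which 47 passed the filter on low counts in both comparisons. The other 3, EIF3CL, EIF5A2 and EIF4E1B, were listed at 0 in all 9 libraries.

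The cells were MOLM-13, a human line of acute myeloid leukaemia, and gave 9 libraries, 3 in each of 3 groups. Cells with a control hairpin (shCONTROL) or a hairpin against BCLAF1 (shBCLAF1) gave rRNA-depleted total RNA, from 2000000 cells each. RNA immunoprecipitation (RIP) of BCLAF1, a nuclear RNA-binding protein, used 15000000 cells of the shCONTROL genotype. All 3 groups, controls included, had received doxycycline at 200 ng/µL for 4 days. The labels name no mock precipitation, so the RIP was compared with total RNA of the shCONTROL cells, and they do not say whether the hairpin cells were 1 clone. Nothing in the labels says that replicates were separate cultures, so p-values measure the spread between these libraries, which may be technical.

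Initiation factors bring the initiator tRNA, the mRNA cap and the small ribosomal subunit together and find the start codon. Elongation factors then deliver each aminoacyl-tRNA and move the ribosome along the mRNA. Many mRNAs of this machinery, with those of ribosomal proteins, begin with a C and a run of pyrimidines, the terminal oligopyrimidine (TOP) motif, through which mTOR signalling and LARP1 control their translation and stability.

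Start sequences are shown because the knock-down calls below are also counted by this motif. Each is 30 bases from RefSeq (GRCh38.p14), 15 before the annotated start and 15 from it, on the gene's strand. Capitals mark a TOP-like run, defined as a C at the start followed by at least 4 C or T. The first 5 were picked from the factors that were lower after knock-down and have the run, and the next, EIF1, was lower without it. The last 3 were higher. The choice was made with the values known and supports no link between motif and change. EIF5 and EIF4G3 each have another annotated start, also with no such run.
EEF2, chr19:3985449-3985478, minus strand: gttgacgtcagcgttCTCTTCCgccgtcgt
EEF1A1, chr6:73521018-73521047, minus strand: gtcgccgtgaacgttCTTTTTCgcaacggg
EIF2S3, chrX:24054941-24054970, plus strand: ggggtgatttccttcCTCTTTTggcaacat
EIF4B, chr12:53006441-53006470, plus strand: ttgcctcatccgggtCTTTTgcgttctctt
EIF3D, chr22:36529152-36529181, minus strand: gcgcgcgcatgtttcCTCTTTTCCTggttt
EIF1, chr17:41688870-41688899, plus strand: aggcaccgcccctctgccccagtcactgag
EIF4G3, chr1:21176883-21176912, minus strand: cgaagttttccgagcagccgtcctgccgga
EIF5, chr14:103334222-103334251, plus strand: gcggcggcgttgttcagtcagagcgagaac
EIF1B, chr3:40309692-40309721, plus strand: tcggccattttgtgcgagaagccgcagcgc

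Totals ran from 25819144 to 36635268 estimated counts per library. Levels are given as CPM, counts relative to library size with TMM scaling over all 9 libraries. They compare 1 gene across libraries and not 1 gene with another, since gene length was not used. The target, BCLAF1, stood at 325, 328 and 312 CPM in shCONTROL, at 115, 125 and 99.9 in shBCLAF1, and at 1143, 1059 and 1034 in the RIP. Of 10 myeloid markers, 8 were above 0 in every library, while CD14 and KIT were listed at 0 throughout. Of 14 markers of T, B, erythroid, epithelial or fibroblast cells, 11 were at 0 in all libraries, and the highest value of the other 3 was 11.9 CPM, for CD3D. In these estimated counts a value of 0 is no evidence that a gene had few reads, so the zeros say little about cell identity. Among the myeloid markers, LYZ, CD33 and SPI1 were higher after knock-down, LYZ by 1.86 on the log2 scale, and FLT3 was lower. MPO, CSF1R, ITGAM and CEBPA gave no call, at -0.10, -0.47, 0.56 and 0.03. The part of these marker changes in the values below was not tested. In bulk RNA, fewer cells of a type and less RNA per cell cannot be told apart.

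**Figure D1:**
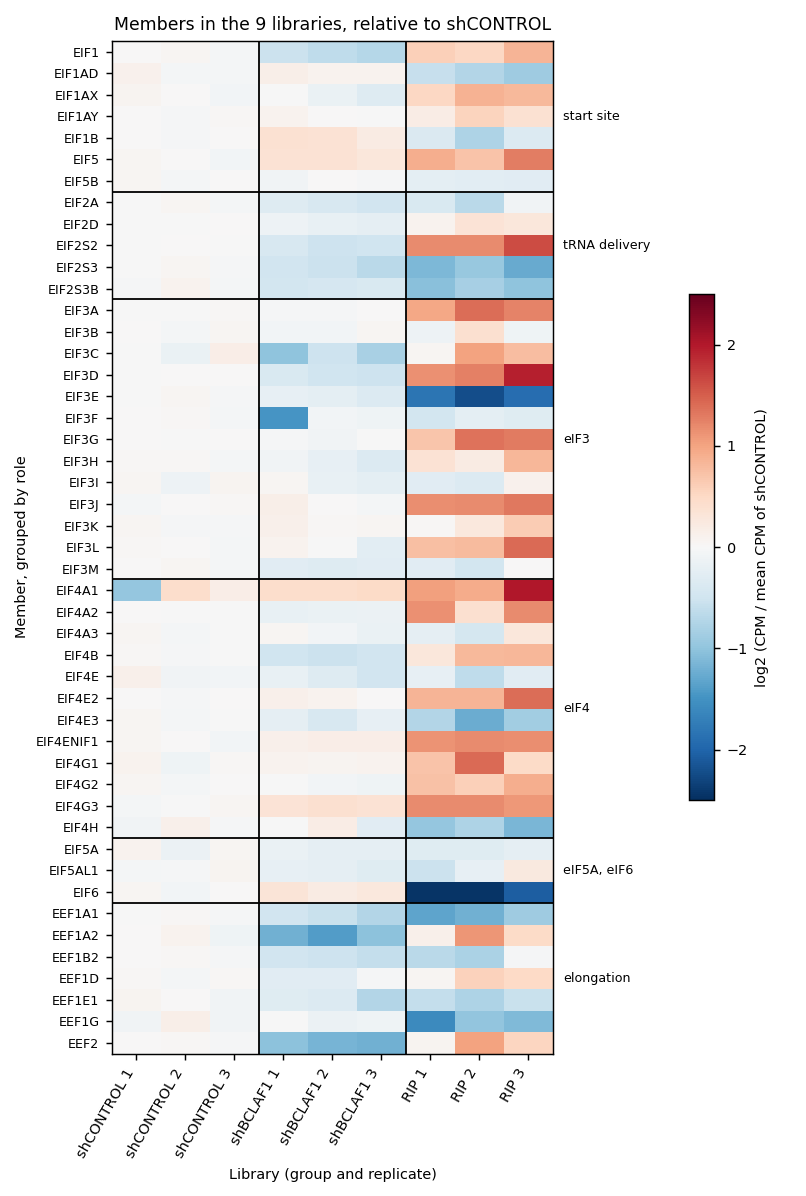
Heat map of the members (vertical axis, grouped by role) in each of the 9 libraries (horizontal axis, 3 per group). Colour gives the log2 of CPM over the gene's mean CPM in shCONTROL, with the scale ending at its darkest colours. The elongation and tRNA delivery blocks are mostly below the control level in shBCLAF1, and the RIP columns hold both strong gains (EIF3D) and strong losses (EIF6).

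After BCLAF1 knock-down, 19 of the 47 tested factors fell and 4 rose. Over all genes tested, 16.9% were lower and 15.5% higher. Among genes with a mean of at least 1000 counts, which 42 of the members reach, 26.5% were lower and 22.1% higher. The members' median log2 fold change was -0.16, against 0.02 for all genes, and 35 of the 47 had a negative value. All 5 tested members listed under initiator tRNA delivery fell, among them EIF2S3B, a close copy of EIF2S3. So did 5 of 7 members listed under elongation, 4 of 13 eIF3 subunits and 3 of 12 factors of the eIF4 group. The elongation list includes EEF1E1, a scaffold protein of the aminoacyl-tRNA synthetase complex. With total counts as the only scaling, which moves the median of all genes to 0.07, 18 fell and 7 rose. Of all 16961 genes tested, 2486 were then lower and 3244 higher. In a single fit of all 9 libraries, 8 fell and 1 rose. The 8 were EEF2, EEF1A1, EEF1A2, EIF1, EIF2S2, EIF2S3, EIF2S3B and EIF4B, and the 1 was EIF4G3. That fit called 1318 of all 17419 genes tested lower and 1129 higher.

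**Figure D2:**
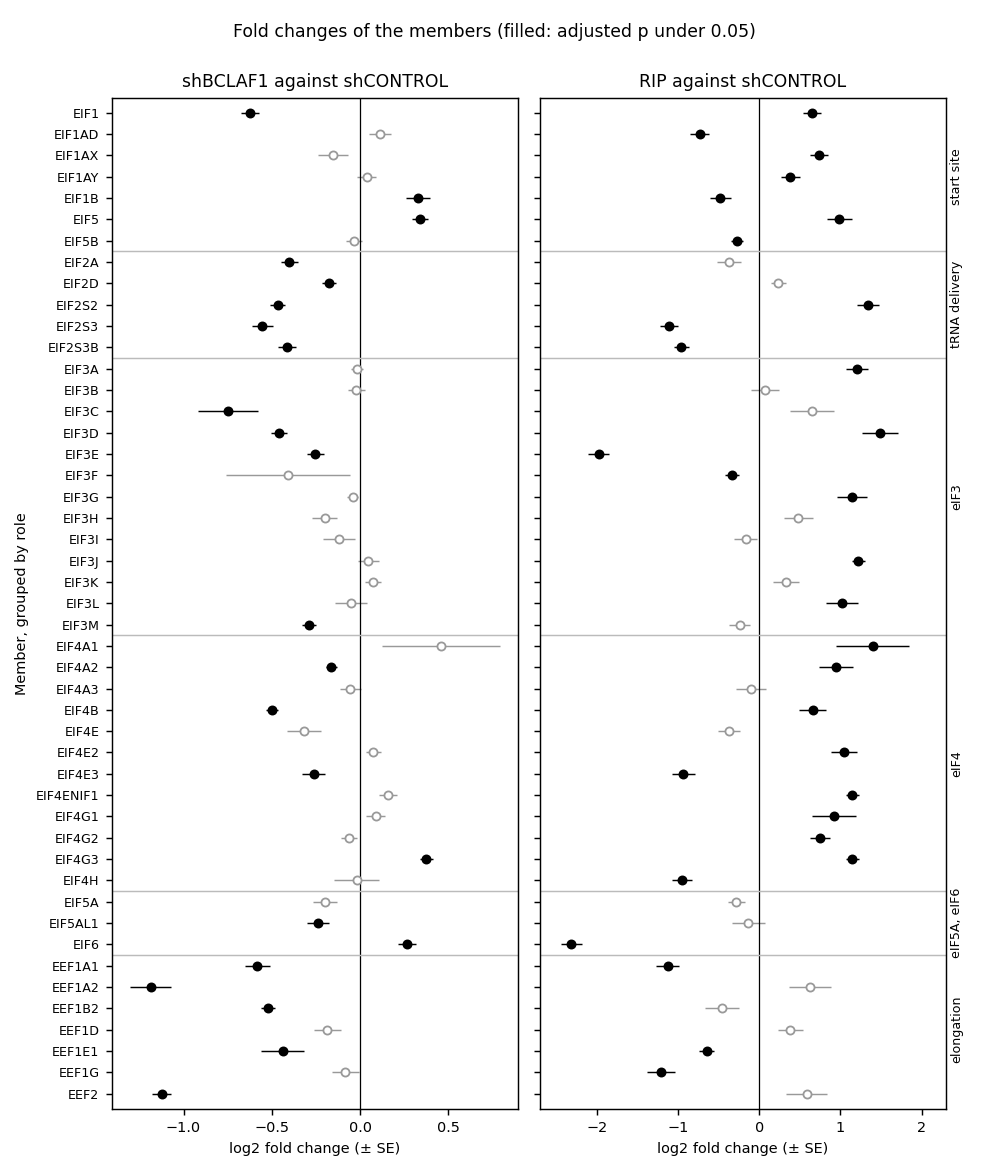
Log2 fold change with its standard error (horizontal axes) of each tested member (vertical axis, grouped by role), after knock-down on the left and in the RIP on the right. Filled points have an adjusted p under 0.05. All 7 members listed under elongation lie left of 0 after knock-down, and EIF6 and EIF3E lie farthest left in the RIP.

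EEF2 encodes the GTPase that moves the ribosome by 1 codon after each peptide bond (chromosome 19, 3976056 to 3985463, GRCh38.p14). It stood at 4716, 4790 and 4599 CPM in shCONTROL and at 2306, 2113 and 2035 in shBCLAF1. Every shBCLAF1 library was below every shCONTROL library, with a mean of 45.7% of the control mean. The log2 fold change was -1.12 ± 0.06 (SE, adjusted p = 0.000156). EEF2 took 0.478% ± 0.0105 of all counts in the controls (SD, n = 3) and 0.227% ± 0.0111 after knock-down (SD, n = 3). All 50 members together took 1.78% ± 0.0243 and 1.41% ± 0.0274, and without EEF2 they took 1.30% ± 0.0148 and 1.18% ± 0.0169. Most of the difference in their summed share was therefore in EEF2.

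EEF1A1 encodes the main form of eEF1A, which carries aminoacyl-tRNA to the ribosome. Its levels were 1693, 1737 and 1660 CPM in shCONTROL and 1221, 1152 and 1018 in shBCLAF1, with no overlap (log2 fold change -0.58 ± 0.07, adjusted p = 0.00195). EEF1A2, the form of muscle and neurons, was at 22.3, 23.9 and 20.8 CPM in shCONTROL and at 9.75, 8.51 and 11.0 in shBCLAF1. Its fall was the largest among the members called, at -1.19 ± 0.11 (adjusted p = 0.000859). The exchange factor subunit EEF1B2 fell by 0.52 on the log2 scale, and EEF1E1, a scaffold protein of the aminoacyl-tRNA synthetase complex, by 0.44. The EEF1E1 call was lost without any 1 of 4 libraries, the 3 shCONTROL libraries and shBCLAF1 replicate 2 (adjusted p = 0.063 to 0.112). The other subunits of the exchange factor gave no call: EEF1G stood at 329, 385 and 329 CPM in shCONTROL and 345, 315 and 321 in shBCLAF1 (-0.09 ± 0.08), and EEF1D had -0.19 ± 0.08.

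In the group that delivers the initiator tRNA, EIF2S3, the GTP-binding gamma subunit of eIF2, was at 472, 494 and 465 CPM in shCONTROL and at 343, 329 and 299 in shBCLAF1. EIF2S2, the beta subunit, was at 116, 117 and 117 CPM against 87.9, 81.6 and 82.6. For both genes all knock-down libraries lay below all controls, with log2 fold changes of -0.55 ± 0.06 (adjusted p = 0.00125) and -0.47 ± 0.04 (adjusted p = 0.00062). The alpha subunit EIF2S1, which is outside the rule, gave no call (-0.09 ± 0.05, adjusted p = 0.257). EIF2S3B, a retrocopy that resembles EIF2S3 closely, fell by 0.42. EIF2A and EIF2D, which can bring initiator tRNA without eIF2, fell by 0.40 and 0.18. The EIF2D call was lost without shCONTROL replicate 1, shCONTROL replicate 3 or shBCLAF1 replicate 2 (adjusted p = 0.0544, 0.0534 and 0.0622).

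The eIF3 complex binds the small subunit and recruits the mRNA. EIF3D, a subunit that can itself bind the cap, was at 296, 302 and 301 CPM in shCONTROL and 230, 213 and 208 in shBCLAF1 (log2 fold change -0.46 ± 0.05, adjusted p = 0.000956). EIF3E was at 1059, 1106 and 1047 CPM against 932, 905 and 849 (-0.25 ± 0.05, adjusted p = 0.00934). Both subunits were lower in each knock-down library than in any control. EIF3M fell by 0.29 and EIF3C by 0.75. EIF3C is nearly identical to EIF3CL and had as few as 85 counts in a library, so its values are uncertain. Its call was lost without shCONTROL replicate 1, shCONTROL replicate 3 or shBCLAF1 replicate 3 (adjusted p = 0.0579, 0.0687 and 0.0511). The other 9 tested subunits gave no call. EIF3F stood apart in 1 library, at 45.0 CPM in shBCLAF1 replicate 1 against 119 and 116 in the other 2 and 125, 128 and 121 in shCONTROL. Its change was -0.41 ± 0.35 on the log2 scale with no call, and leaving that library out gave -0.08.

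The eIF4 group recognises the cap and unwinds the leader of the mRNA. EIF4B, which stimulates the helicase eIF4A, fell by 0.50 ± 0.03 on the log2 scale (adjusted p = 0.000287). EIF4G3, a form of the scaffold eIF4G, rose: it was at 155, 160 and 165 CPM in shCONTROL and at 204, 210 and 207 in shBCLAF1, with no overlap (0.38 ± 0.04, adjusted p = 0.00105). The main scaffold gene EIF4G1 was at 771, 673 and 740 CPM against 778, 764 and 776 and gave no call (0.09 ± 0.05). The helicase gene EIF4A2 fell by 0.16, a call that needed both shCONTROL replicate 1 and replicate 3 (leaving out either gave adjusted p = 0.0543 and 0.0537). Its paralogue EIF4A1 was at 157, 416 and 345 CPM in shCONTROL and 415, 414 and 429 in shBCLAF1 (0.46 ± 0.33). Replicate 1 of shCONTROL was the low one, and without it the value was 0.16. The cap-binding genes EIF4E and EIF4E2 gave no call, at -0.32 ± 0.10 (adjusted p = 0.0505) and 0.07 ± 0.04. EIF4E3, a less common cap-binding form, fell by 0.26, a call lost without any 1 of 5 libraries (adjusted p = 0.052 to 0.102).

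In start codon selection the members moved both ways. EIF1, which keeps the scanning ribosome from starting at wrong codons, was at 382, 393 and 369 CPM in shCONTROL and at 261, 246 and 234 in shBCLAF1 (log2 fold change -0.62 ± 0.05, adjusted p = 0.000524). Its paralogue EIF1B was at 27.4, 26.4 and 27.3 CPM against 35.4, 34.9 and 31.1 (0.33 ± 0.07, adjusted p = 0.0135, and 0.0522 without shBCLAF1 replicate 2). EIF5, which triggers GTP hydrolysis by eIF2 at the start codon, was at 266, 257 and 245 CPM against 328, 328 and 313 (0.34 ± 0.04, adjusted p = 0.00217). EIF1 was thus lower, and EIF1B and EIF5 higher, in each knock-down library than in any control. EIF6, which keeps the large subunit from joining too early, was at 76.8, 70.4 and 74.2 CPM against 92.5, 85.1 and 88.2, an increase of 0.27 ± 0.05 (adjusted p = 0.00954). EIF5A, whose product helps the ribosome past difficult peptide bonds, was at 477, 401 and 462 CPM against 399, 382 and 383 (-0.20 ± 0.07, adjusted p = 0.0738). Its retrocopy EIF5AL1 was at 26.5, 26.7 and 28.4 CPM against 23.6, 23.2 and 22.1, and fell by 0.24. That call was lost without any 1 of 4 libraries, shCONTROL replicates 1 and 3 and shBCLAF1 replicates 2 and 3 (adjusted p = 0.0524 to 0.0889).

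**Figure D3:**
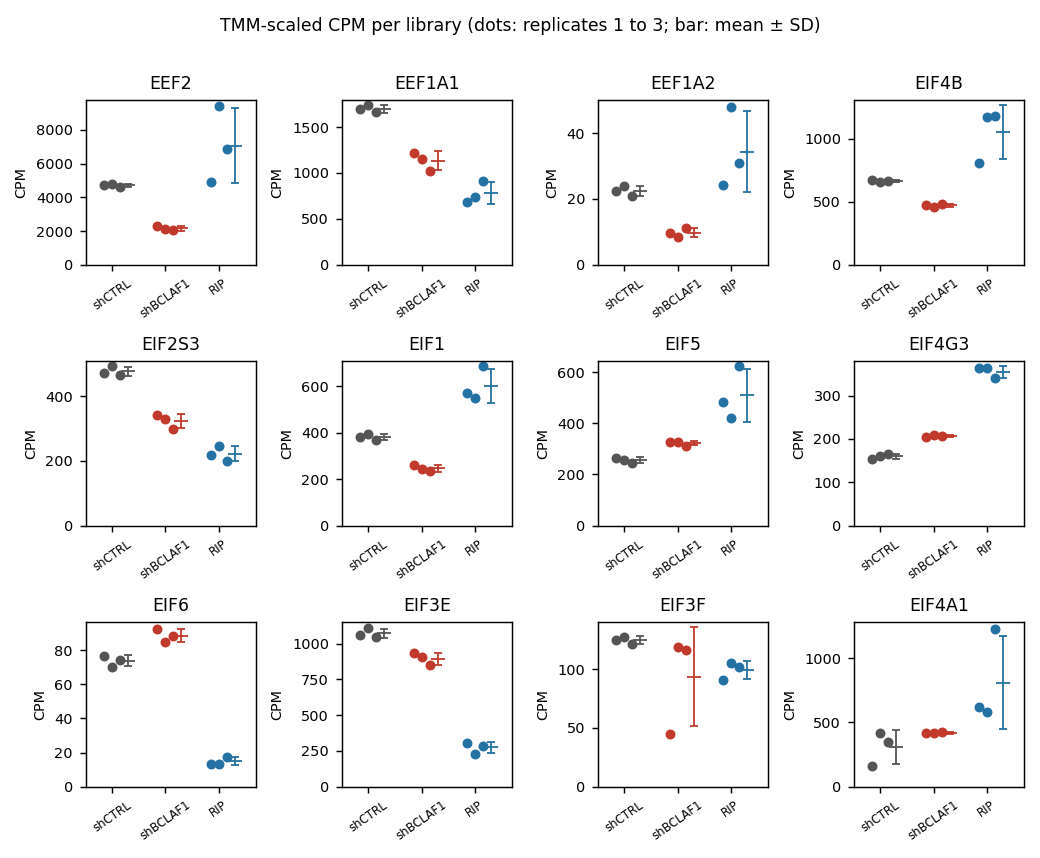
CPM (vertical axes, each starting at 0) of 12 members in the 9 libraries, with shCTRL standing for shCONTROL. Dots are replicates 1 to 3 and the bar is the mean ± SD. EEF2 lies near 4700 in shCONTROL and near 2150 in shBCLAF1, and 1 library stands apart for EIF3F and for EIF4A1.

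The RefSeq promoter table held 41 of the 50 members, 39 of them tested. Of 13 tested members with a TOP-like start, 11 fell and none rose, with a median log2 fold change of -0.42. The 2 with no call were EIF3F and EIF3K. The 11 count both EIF2S3 and its close copy EIF2S3B. Of 26 tested members without such a start, 5 fell and 4 rose, with a median of -0.03. The 5 were EIF3C, EIF1, EEF1E1, EIF4E3 and EIF5AL1. Over all tested genes in the promoter table, 30.8% of the 756 with a TOP-like start fell and 14.4% rose, and of the 9191 without, 19.2% fell and 19.2% rose. Ribosomal proteins were lower with such a start (44 of 50) and without it (15 of 19). Leaving out members and ribosomal proteins, 25.7% of genes with the start fell against 19.0% without it. A TOP-like start was found in 4.07% of all 35116 promoters listed. Members were counted by gene, with any 1 start sufficient, and by gene the share was 5.14% of 27305. The difference between members with and without the motif was not tested, and the counts describe the annotated starts on the gene's strand, not the starts used in these cells. Of 9 members known as TOP mRNAs from textbooks, 5 fell, and of 5 such genes outside the members (PABPC1, RACK1, TPT1, HNRNPA1 and NAP1L1) 4 fell. Among the 9, EEF1G has no such run at its annotated start and was counted as without it. EIF3E, EIF3H and EEF1D have no entry in the promoter table.

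**Figure D4:**
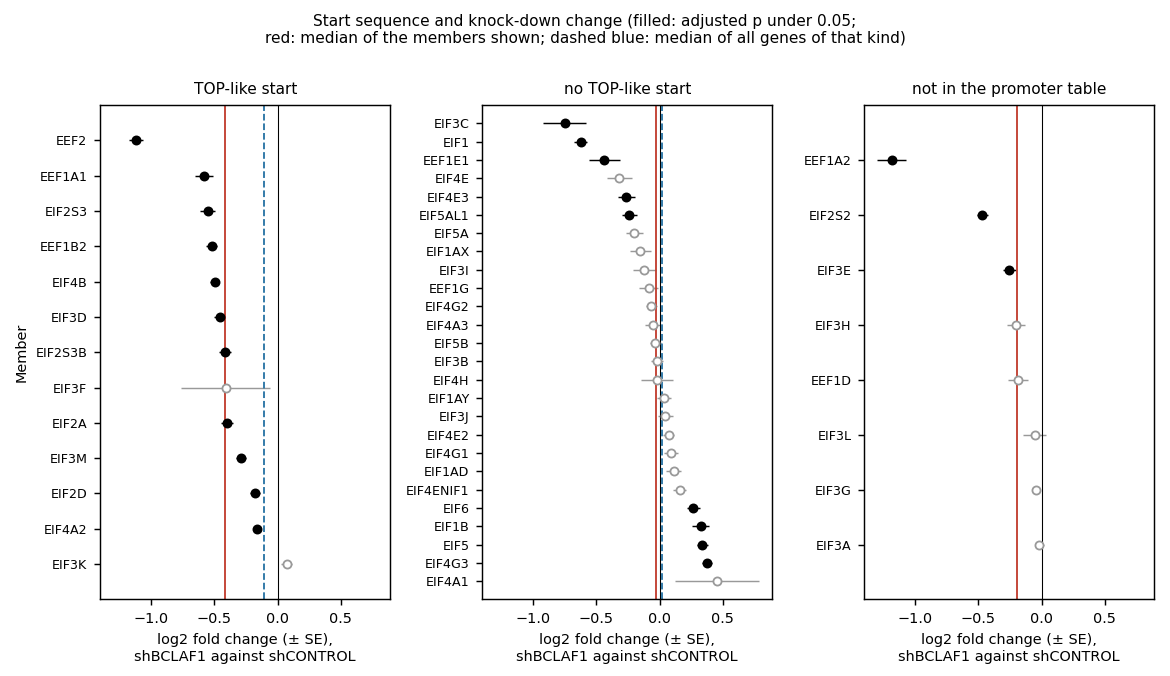
Log2 fold change after knock-down with its standard error (horizontal axes) of the tested members (vertical axes), split by start sequence. Filled points have an adjusted p under 0.05, the red line is the median of the members shown, and the dashed blue line is the median of all genes of that kind. The red line is at -0.42 for members with a TOP-like start and at -0.03 for those without.

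In the RIP, 10 of the 47 tested factors were enriched and 5 depleted, that is, past an adjusted p of 0.05 with a log2 fold change of 1 or more in either direction. Over all genes tested, 11.0% were enriched and 13.5% depleted. Of the 10, 5 were eIF3 subunits and 4 belonged to the eIF4 group, while both elongation factors past the limits were depleted. At any size, 18 were higher and 13 lower, against 24.6% and 24.7% of all genes. Among genes with a mean of at least 1000 counts, 12.9% were enriched and 13.6% depleted, and 35.5% were higher and 30.0% lower at any size, near the members' 38.3% and 27.7%. The median log2 fold change of the members was 0.33, against -0.05 for all genes. With total counts as the only scaling, which moves the median of all genes to -0.16, 7 were enriched and 8 depleted. Of all 16727 genes tested, 1471 were then enriched and 2619 depleted. Testing whether the change exceeded 1 on the log2 scale left 1 member of the 47 enriched and 2 depleted. The same test left 732 of all 16727 genes enriched and 1142 depleted. The knock-down and the RIP share the shCONTROL libraries, so their values are set side by side and were not correlated.

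Among eIF3 subunits EIF3D had the highest log2 fold change, 1.49 ± 0.22 (adjusted p = 0.00269). It was at 661, 718 and 1150 CPM in the RIP against 296, 302 and 301 in shCONTROL. EIF3J, EIF3A, EIF3G and EIF3L were enriched as well, at 1.22, 1.20, 1.14 and 1.02. EIF3L passed the limit of size narrowly: it was 0.78 without RIP replicate 3, 0.99 without shCONTROL replicate 3, 0.98 with the replicate block and 0.90 under total counts. EIF3E went the other way, at 304, 230 and 287 CPM in the RIP against 1059, 1106 and 1047 (-1.97 ± 0.13, adjusted p = 0.000272). EIF3D and EIF3E thus lay on opposite sides of the control in every RIP library, although both had fallen after knock-down. EIF3F was lower by 0.34, a call lost without any 1 of the shCONTROL libraries (adjusted p = 0.0648 to 0.0794).

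In the eIF4 group, EIF4ENIF1, which carries eIF4E into the nucleus, was at 71.1, 73.9 and 73.4 CPM in the RIP against 34.0, 32.9 and 31.3 in shCONTROL (1.15 ± 0.08, adjusted p = 0.000271). EIF4G3 was at 363, 363 and 340 CPM in the RIP (1.15 ± 0.08, adjusted p = 0.000299). These 2 genes had a narrow spread over the RIP libraries. EIF4E2, the cap-binding form that acts in repression, was at 151, 151 and 222 CPM in the RIP against 85.3, 82.6 and 84.9 (1.04 ± 0.17, adjusted p = 0.00324). It fell under the limit of size without RIP replicate 3 (0.84) and under total counts (0.93). EIF4E itself was at 33.8, 25.3 and 32.0 CPM against 42.9, 37.0 and 37.3 (-0.37 ± 0.14, adjusted p = 0.0648). EIF4A1 was at 623, 581 and 1226 CPM in the RIP (1.40 ± 0.45, adjusted p = 0.0428). That call was lost without any 1 of the 6 libraries (adjusted p = 0.0503 to 0.107). EIF4A2 was higher by 0.94, at 569, 343 and 589 CPM against 260, 257 and 258. EIF4G1, at 1190, 1945 and 1009 CPM, was higher by 0.92 and EIF4B by 0.66, and both calls were lost without any 1 of the shCONTROL libraries (adjusted p = 0.0689 to 0.102). EIF4G2 was higher by 0.75, while EIF4H, another helper of the helicase, and EIF4E3 were lower by 0.95 and 0.93.

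The lowest RIP log2 fold change among the members was that of EIF6, -2.31 ± 0.13 (adjusted p = 0.000224). It was at 13.4, 13.5 and 17.6 CPM in the RIP against 76.8, 70.4 and 74.2 in shCONTROL. Of the elongation factors, EEF1G was at 116, 174 and 161 CPM in the RIP against 329, 385 and 329 (-1.21 ± 0.18, adjusted p = 0.00238). EEF1A1 was at 681, 743 and 913 CPM (-1.13 ± 0.14, adjusted p = 0.00132). All 3 genes were below the control range in each RIP library. EEF1E1 was lower by 0.64 (adjusted p = 0.00233), under the limit of size. EEF1A2, at 24.3, 48.0 and 30.9 CPM, gave no call (0.62 ± 0.26). EEF2 was at 4926, 9389 and 6861 CPM, above every control library, but its replicates spread widely and it gave no call (0.58 ± 0.25, adjusted p = 0.103).

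The eIF2 subunits differed in direction. EIF2S2 was at 263, 266 and 359 CPM in the RIP against 116, 117 and 117 (1.34 ± 0.14, adjusted p = 0.000787), and EIF2S3 was at 219, 246 and 200 against 472, 494 and 465 (-1.11 ± 0.11, adjusted p = 0.000675). The alpha subunit EIF2S1, which is outside the rule, was lower by 0.96, as was the retrocopy EIF2S3B. In start codon selection no factor passed the limit of size. EIF5 was at 481, 422 and 623 CPM in the RIP (0.98 ± 0.16), EIF1AX, which helps the ribosome scan, at 90.5, 115 and 110 against 65.7, 63.0 and 59.9 (0.74 ± 0.11), and EIF1 at 574, 549 and 686 (0.65 ± 0.11). EIF1B was at 21.1, 15.9 and 21.4 CPM and lower by 0.48, a call lost without any 1 of the shCONTROL libraries (adjusted p = 0.0661 to 0.0842). EIF5B, the GTPase of subunit joining, was lower by 0.27, a call also lost without any 1 of them (adjusted p = 0.0548 to 0.107). EIF1AD was lower by 0.73 (adjusted p = 0.00338, and at most 0.0189 when a library was left out). EIF1AY was higher by 0.38, a call lost without any 1 of the shCONTROL libraries or RIP replicate 2 or 3 (adjusted p = 0.053 to 0.121). At any size, 4 of the 7 members of this list were higher and 3 lower.

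Paralogues encode alternative forms of 1 factor. In 5 such pairs the log2 ratio of their counts was compared between groups, in 10 comparisons, with an exact two-sided permutation test that cannot go below 0.1 for 3 against 3 libraries. The EIF1 to EIF1B ratio fell by 0.95 after knock-down and was 1.14 higher in the RIP than in shCONTROL. The EEF1A1 to EEF1A2 ratio was 0.61 higher after knock-down and 1.70 lower in the RIP, and the EIF4E to EIF4E2 ratio was 0.39 and 1.40 lower. The groups did not overlap in these 6 comparisons, nor for EIF4A1 to EIF4A2 (0.74) and EIF4G1 to EIF4G3 (-0.28) after knock-down (exact p = 0.1, adjusted 0.125 for each). Without shCONTROL replicate 1 the EIF4A1 to EIF4A2 difference was 0.31. For these last 2 pairs the RIP and shCONTROL ranges overlapped (exact p = 0.4 for each). EIF5A2 was listed at 0, so EIF5A had no ratio.

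**Figure D5:**
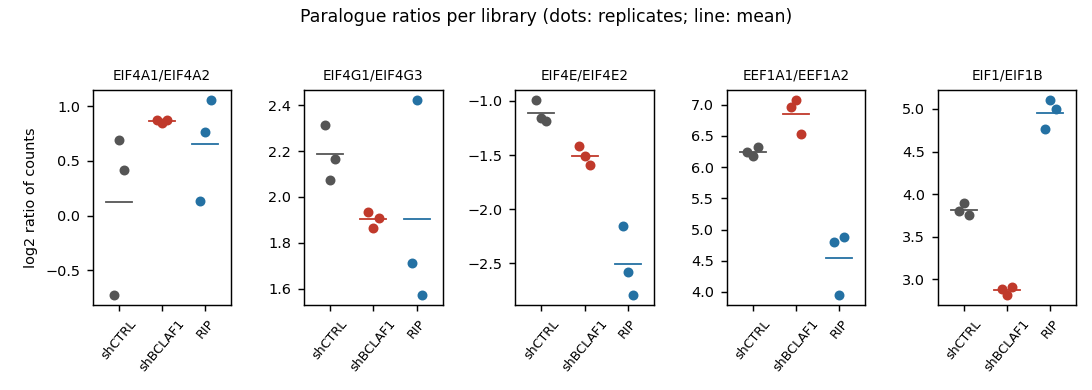
Log2 ratio of the counts of 5 paralogue pairs (vertical axes) in the 9 libraries by group (horizontal axes), with shCTRL standing for shCONTROL. Dots are libraries and lines are means. The EIF1 to EIF1B ratio lies lowest in shBCLAF1 and highest in the RIP, and the EIF4A1 to EIF4A2 ratio has 1 low shCONTROL library.

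Several members have pseudogenes or read-through transcripts with rows of their own, and reads can be split between such copies. For EEF1A1, 12 such rows held 49.0% of the summed shCONTROL counts, and summing them gave log2 fold changes of -0.58 after knock-down and -1.12 in the RIP. Summing changed 1 call among the members that have such rows: EIF4E, where the other rows held 41.8%, became lower after knock-down (-0.25, adjusted p = 0.0216). For EIF4A1 the added rows held 23.9%, and the values were 0.36 and 1.37.

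Of 44 partners and regulators of these factors, 42 were in the table. After knock-down 15 fell and 5 rose (median log2 fold change -0.15). These are 35.7% and 11.9%, against 16.9% and 15.5% of all genes tested. Among genes with a mean of at least 1000 counts the shares were 26.5% and 22.1%. EIF4EBP1, an inhibitor of eIF4E that mTOR switches off, was at 265, 261 and 266 CPM in shCONTROL and 133, 120 and 131 in shBCLAF1 (-1.04 ± 0.05, adjusted p = 0.000141). DPH5, an enzyme of the diphthamide modification of eEF2, fell by 0.98 ± 0.08, while the eIF4E kinase MKNK1 and the helicase DHX29 rose by 0.82 and 0.63. The methyltransferase gene EEF1AKMT3 was listed at 0 in all shCONTROL libraries and at 3.86, 13.1 and 8.89 CPM in shBCLAF1. No fold is given, since in these estimated counts a value of 0 is no evidence that the gene had few reads. EEF1AKMT3 is nevertheless counted among the 5 that rose. Over all genes tested in the RIP, 11.0% were enriched and 13.5% depleted. Of the 41 partners and regulators tested there, 1 was enriched (2.4%, PAIP2 at 1.05) and 8 were depleted (19.5%), with a median of -0.37. The lowest were EEF1AKMT4, the ribosome recycling factor ABCE1 and the hydroxylase DOHH, which completes hypusine in eIF5A, at -1.72, -1.68 and -1.66, followed by MCTS1 and DENR, partners in re-initiation, at -1.14 and -1.10. Of 10 mitochondrial translation factors, 3 fell (30%) and 1 rose (10%) after knock-down, against the 16.9% and 15.5% of all genes. Their median was 0.08, and 1 (10%) was enriched in the RIP, against 11.0% of all genes. The difference from the cytosolic members was not tested.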

How the data were processed

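The authors deposited 1 table of estimated counts (expected counts) per gene, with no normalization. The submitters' processing notes name STAR 2.7.11b, StringTie 2.2.3 and hg38, without roles. The values were whole and were not rounded. The entry that names no gene, 2.18% to 3.75% of counts in 8 libraries, was left out. All columns of sample values were used.

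Each contrast was fitted on its own 6 libraries over all genes with edgeR 4.0.16 in R 4.3.3: TMM scaling, the default filter on low counts (minimum count 10), a prior count of 2, the quasi-likelihood F-test with no covariate besides group, and Benjamini-Hochberg adjustment over all genes tested, called at 0.05. Standard errors are the log2 fold change divided by the square root of F. The scripts were tested on simulated data. DESeq2 1.42.0, other scalings, no filter, a fit of all 9 libraries, a replicate block and leaving out each library were tried. Summing look-alike copies was added after seeing the data. The common biological coefficient of variation was 0.233 for the knock-down and 0.313 for the RIP. In these totals 3 counts equal 0.0819 to 0.116 CPM, counting error only. All 9 samples carry batch label 1, so no comparison across batches could be made. Replicates differed by more than counting noise, and each was counted as its own sample. That spread does not show that they were separate cultures.

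The members and lists were chosen with earlier results of these data known. Values in all libraries are given for BCLAF1, the paralogue pairs and the 2 called members of each role with the largest change in either contrast. Those of EEF2, EIF3F and other members were added after their values were seen, and up to 5 pathway genes per contrast were named by size.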

Additional observations from a re-analysis of the deposited data

How the results depend on the processing

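Counts of calls kept within 1.5 times of those reported under DESeq2, DESeq2 size factors and no filter on low counts. Under total counts 7 members rose after knock-down and 8 were depleted in the RIP. In the fit of all 9 libraries 1 rose and 8 fell after knock-down. With a minimum log2 fold change of 1, 0 rose and 2 fell, and requiring the change to exceed 1 by test left 1 enriched and 2 depleted. With the minimum of 1, 301 of all 16961 genes tested rose after knock-down and 380 fell. The counts over all genes under total counts, in the fit of all 9 libraries and in the test against 1 are given above. Leaving out each library gave 3 to 4 rising and 13 to 20 falling, 8 to 11 enriched and 5 to 7 depleted, and 14 to 23 higher and 10 to 18 lower at any size. Of 23 knock-down calls 9 held in every alternative run for that member, and of 31 RIP calls at any size 24 did (12 alternatives each, and 13 for members with look-alike copies). The causes were not tested.

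Replicate numbers did not pair the libraries: correlations of same-numbered deviations ran from -0.0212 to 0.0564. With the replicate block 4 rose and 18 fell, 9 were enriched and 5 depleted, and 15 were higher and 11 lower at any size. EIF3C and EIF5AL1 lost their knock-down call under it, and EIF1AY, EIF3F, EIF4B, EIF4G1 and EIF5B their RIP call. For the paralogue ratios the block gives the same mean differences by arithmetic, so it was no check on them.

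The sign changed only in comparisons where the member had no call. Under total counts the knock-down values were 0.034 for EIF3A, 0.0082 for EIF3G, 0.017 for EIF5B, 0.031 for EIF3B and 0.029 for EIF4H, and the RIP value was -0.053 for EIF3B. Leaving out a library, knock-down values ran from -0.028 to 0.0059 for EIF3A, -0.125 to 0.0028 for EEF1G, -0.012 to 0.088 for EIF3J, -0.057 to 0.0031 for EIF5B, -0.128 to 0.042 for EIF3L, -0.061 to 0.0059 for EIF3B and -0.138 to 0.096 for EIF4H. RIP values ran from -0.360 to 0.041 for EIF5AL1, -0.327 to 0.039 for EIF4A3 and -0.129 to 0.168 for EIF3B. With 3 libraries a group, small changes are the least certain. EIF3C had as few as 85 counts in a library, and the 3 members listed at 0 were not tested.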
